A study of Mus musculus with 30 samples.

Results

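The genes described here are the Nr4a family (Nr4a1, Nr4a2 and Nr4a3) and 7 immediate early genes (Fos, Fosb, Jun, Junb, Egr1, Ier2 and Atf3), measured by RNA-seq in mouse colon. They were chosen by name as the rows of the gene count table that carry these symbols, 10 of 46078 genes, and all 10 were among the 16261 genes expressed highly enough to be tested. RNA came from the epithelial layer of the colon, scraped off the lamina propria of wild-type C57BL/6J mice, outside the tumors. The mice were 5 to 10 weeks old when the experiment began. AOM/DSS mice received 1 intraperitoneal injection of azoxymethane (AOM, a colon carcinogen, 10 mg/kg) followed by 3 cycles of 2.5% dextran sodium sulfate (DSS, an irritant that injures the colon lining) in the drinking water. They were killed at 9 weeks, shortly after the last DSS cycle, or at 15 weeks. Vehicle mice received a saline injection and were killed at 9 weeks. Each of the 6 groups (females and males, each given vehicle or killed at 9 or at 15 weeks of AOM/DSS) held 5 mice, with 1 library per mouse, so the replicates were separate animals. There was no vehicle group at 15 weeks, and so treatment and time cannot be told apart at that time point. Both AOM/DSS time points were compared with the same vehicle mice.

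Immediate early genes are transcribed within minutes of a stimulus, without the need for new protein, because their transcription factors already sit in the cell and are switched on by kinase signaling. Fos and Jun family proteins pair to form the transcription factor AP-1, Egr1 is a zinc finger transcription factor, and the Nr4a proteins are orphan nuclear receptors whose activity is set mostly by how much of them is made. In the gut lining, growth factors, injury, inflammatory mediators and tissue handling are all known to switch such genes on for a short time.

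The libraries held 9265804 to 30806392 counts, the fewest in vehicle female 5. The epithelial markers were high in all libraries, with a summed level of 14160 to 24600 CPM (counts scaled to the size of the library) over 11 genes such as Epcam, Cdh1 and Krt8. Vehicle male 1 stood apart by its smooth muscle markers, whose summed level was 6605 CPM against 154.8 to 224.0 CPM in the other vehicle males. In 15-week male 4, all 10 genes described here lay below their group means. For the 10 genes and the pathway genes named below, calls that changed without 1 of these libraries are given with and without it. Other calls were made with all libraries only. In bulk tissue, fewer cells of a type and less RNA per cell cannot be told apart.

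Among these genes, Fos, the main Fos-family subunit of AP-1, was the most abundant per transcript length and Nr4a3 the least. The median over the 30 libraries was 31.7 TPM (transcript level per length, scaled within the library) for Fos, and Fos lay above the next gene in 29 libraries. Below it came a block of 4 genes with medians of 13.9 TPM for Ier2 (a nuclear regulator induced by growth factors), 12.2 TPM for Jun, 11.6 TPM for Atf3 (a stress-induced transcription factor of the same leucine zipper class as Fos and Jun) and 10.8 TPM for Junb (a Jun-family AP-1 subunit). Neighbors within this block did not differ in order reliably, each lying above the next in only 16, 17 and 17 of 30 libraries. Junb lay above Egr1 in 28 libraries. Egr1 had a median of 2.96 TPM, above Nr4a1 in 25 libraries. Nr4a1 had a median of 1.54 TPM and lay above Nr4a2 in all 30, whereas Nr4a2 (0.671 TPM) lay above Fosb (0.490 TPM), a second Fos-family subunit, in 21. Nr4a3 was listed at 0 TPM in 11 libraries, with a median of 0.0537 TPM. Only 15-week male 4 had a count of 0, and 15-week male 2 was listed at 0 TPM with 15 counts. In each library 3 other genes held 56.6 to 80.8% of the TPM, so these medians read low and serve for order only. The 10 genes together took up 251 to 542 CPM in a library, with a median of 366.

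**Figure D1:**
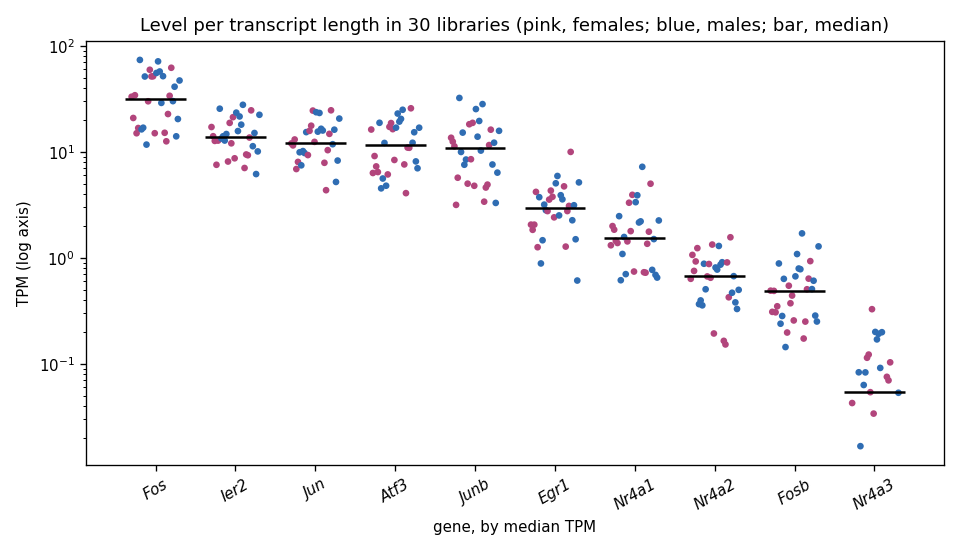
TPM of each gene (log axis) in the 30 libraries, one point per library (pink, females; blue, males), with the genes ordered by their median (bar). Fos is at the top with a median of 31.7 TPM and Nr4a3 at the bottom with 0.0537 TPM; 11 libraries with Nr4a3 listed at 0 are not drawn, since a log axis has no 0.

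Expression in AOM/DSS-treated mice was then compared with vehicle at 9 weeks, the time closest to the last DSS cycle. In males, Atf3 and Nr4a1 rose, and the estimates of all 10 genes were above 0. The median log2 fold change of the 10 genes was 0.71, against -0.03 over all genes tested. A gene was called changed when the edgeR quasi-likelihood test with Benjamini-Hochberg adjustment over all genes gave an adjusted p under 0.05, the log2 fold change exceeded 0.4 in size and the mean FPKM (fragment level per transcript length) reached 1 in 1 of the compared groups. By this rule 2 of the 10 genes were called, where 7.31% of all genes tested were. The FPKM minimum shut out some members in advance, because Nr4a3 reached a mean FPKM of 1 in no group, Nr4a2 only in vehicle females and Fosb only in 9-week males.

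Atf3 (chr1:191170296-191218039, minus strand, GRCm38) was measured at 44.5, 20.7, 22.2, 36.0 and 15.5 CPM in vehicle males 1 to 5, and at 49.6, 60.04, 53.2, 63.8 and 60.2 CPM in 9-week males. All 9-week males lay above all vehicle males. The means were 27.8 ± 12.1 CPM and 57.4 ± 5.80 CPM (SD, n = 5 each), a log2 fold change of 1.05 (SE 0.26, 95% interval 0.50 to 1.59, adjusted p = 0.0126), or 2.06-fold. The call held with any 1 of these libraries left out, and without vehicle male 1 the log2 fold change was 1.28.

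Nr4a1, the Nr4a member best known as Nur77 (chr15:101266846-101274792, plus strand), was measured at 7.61, 3.64, 5.39, 6.05 and 2.91 CPM in vehicle males and at 12.8, 13.1, 7.75, 8.81 and 21.7 CPM in 9-week males. The groups did not overlap, although the lowest 9-week male lay just above the highest vehicle male. The means were 5.12 ± 1.89 and 12.8 ± 5.49 CPM (SD, n = 5 each), a log2 fold change of 1.32 (SE 0.35, 95% interval 0.61 to 2.03, adjusted p = 0.0157), or 2.50-fold. The call was lost without the highest library, 9-week male 5, where the log2 fold change was 1.05 and the adjusted p 0.0549. Without vehicle male 1 the log2 fold change was 1.51 (adjusted p = 0.0135).

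Of the 10 genes, 5 separated the 9-week males from the vehicle males without overlap, and 10.3% of all genes tested did so in either direction. The other 3 were Fosb, Nr4a2 and Nr4a3, all higher at 9 weeks. Fosb (chr7:19302721-19310045, minus strand) ranged from 0.934 to 4.07 CPM in vehicle males and from 4.15 to 7.81 CPM in 9-week males, with a log2 fold change of 1.03 (SE 0.34) and an adjusted p of 0.0531, which missed the threshold. With 1 library left out, the value ran from 0.82 to 1.25 and the adjusted p from 0.0337 to 0.133. Fosb was called without vehicle male 1 (1.25, adjusted p = 0.0350) and without vehicle male 4 (1.20, adjusted p = 0.0337), and it had 0.86 (adjusted p = 0.129) without 9-week male 5. DESeq2 also called it (1.04, adjusted p = 0.0254). Nr4a2, which in other tissues is known from dopamine neurons, was measured at 1.171, 2.997, 1.385, 3.25 and 2.61 CPM in vehicle males and at 3.79, 3.36, 4.34, 4.70 and 3.47 CPM in 9-week males. Its log2 fold change of 0.79 (SE 0.34) had an adjusted p of 0.140. The other 5 genes overlapped between these groups. Jun had a log2 fold change of 0.58 (adjusted p = 0.0937), Egr1 of 0.63 (adjusted p = 0.382), Fos of 0.50 (adjusted p = 0.318), Junb of 0.18 (adjusted p = 0.794) and Ier2 of 0.15 (adjusted p = 0.723).

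**Figure D2:**
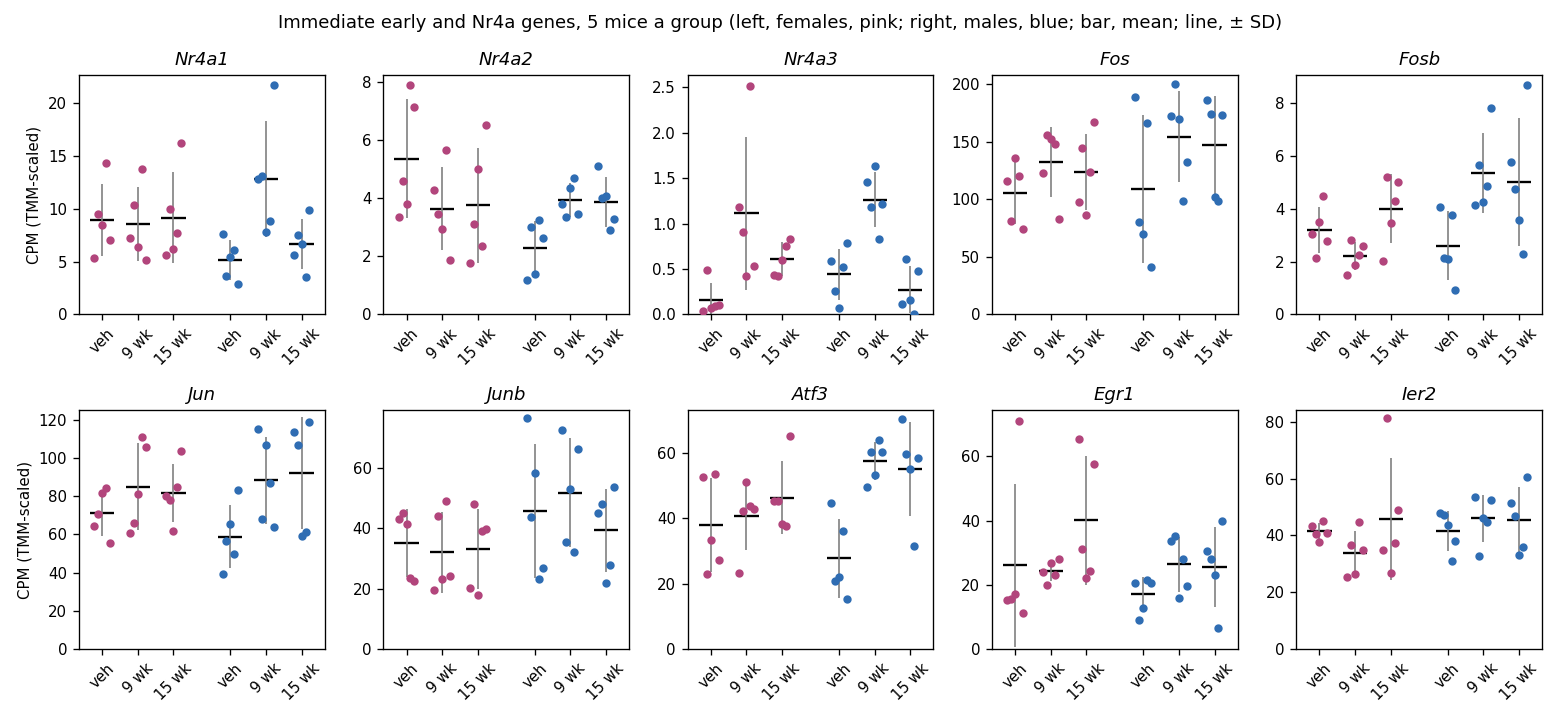
CPM scaled by edgeR's TMM factors for each of the 10 genes (one panel each, linear axes from 0), with one point per mouse, the group mean (black bar) and ± SD (grey line) for females (pink) and males (blue) in each of the 3 treatment groups. In males the 9-week points of Nr4a1, Nr4a2, Nr4a3, Fosb and Atf3 lie wholly above the vehicle points, and in vehicle females Egr1 has 1 library at 70.95 CPM far above the others.

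In females at 9 weeks none of the 10 genes was called, where 2.90% of all genes tested were. Their median log2 fold change was -0.08, against -0.01 over all genes tested, and 4 of 10 estimates were above 0. No gene separated the 9-week females from the vehicle females without overlap (4.18% of all genes tested did). Atf3 was measured at 52.5, 23.0, 33.5, 53.5 and 27.1 CPM in vehicle females and at 23.3, 42.3, 50.9, 43.8 and 42.7 CPM in 9-week females. Nr4a1 was measured at 5.32, 9.49, 8.48, 14.3 and 7.04 CPM in vehicle females and at 7.19, 10.4, 6.39, 13.7 and 5.11 CPM in 9-week females. Both genes overlapped over most of their range. The log2 fold change was 0.10 for Atf3 (95% interval -0.44 to 0.63) and -0.06 for Nr4a1 (95% interval -0.77 to 0.64).

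Whether the response differed between the sexes was tested as an interaction, the male minus the female log2 fold change. No gene of the 10 was called at either time point, and no gene in the whole table was (0% of those tested), although 1205 genes at 9 weeks and 1245 at 15 weeks had an unadjusted p under 0.05. At 9 weeks this difference was 1.57 for Fosb (SE 0.49, adjusted p = 0.591), 1.38 for Nr4a1 (SE 0.49, adjusted p = 0.5999), 1.33 for Nr4a2 (SE 0.48, adjusted p = 0.5999) and 0.95 for Atf3 (SE 0.37, adjusted p = 0.641). These 4 had an unadjusted p under 0.05. At 15 weeks, Nr4a2 (1.27, adjusted p = 0.511) and Nr4a3 (-2.50, adjusted p = 0.504) had an unadjusted p under 0.05. The calls in males and the lack of calls in females were therefore not shown to differ.

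**Figure D3:**
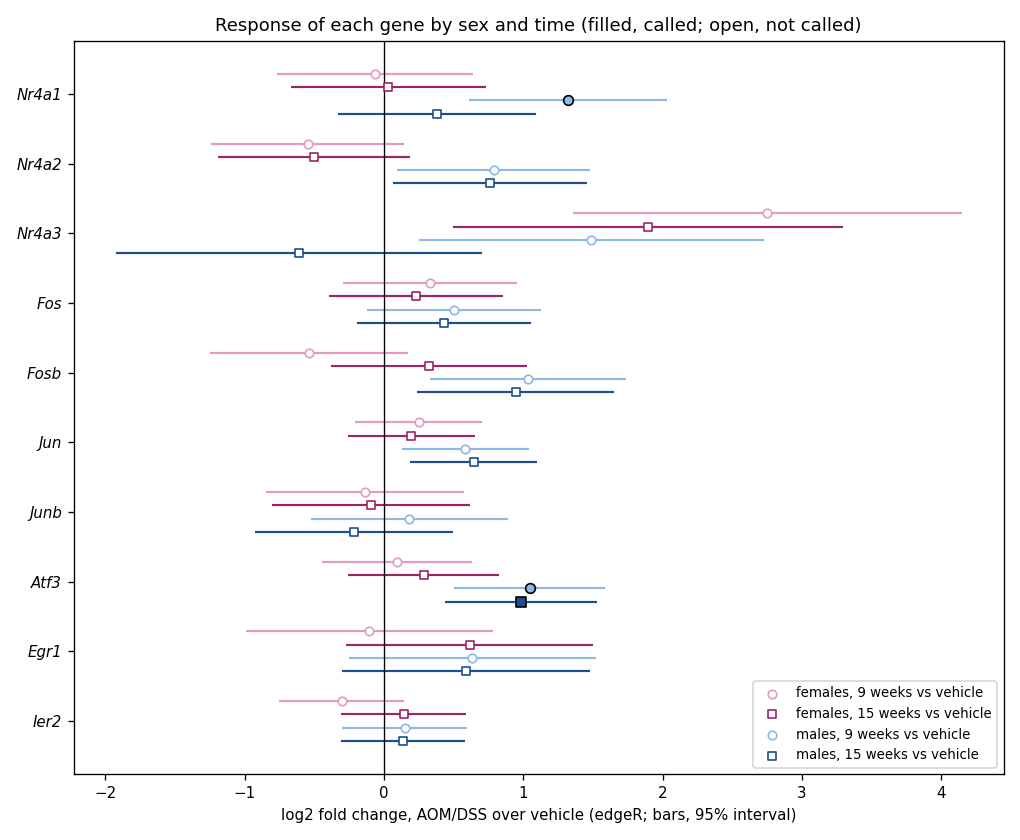
Log2 fold change of AOM/DSS over vehicle for each gene (x axis; bars, 95% intervals), in females (pink) and males (blue) at 9 weeks (circles) and 15 weeks (squares), filled where the gene was called. The filled points are Nr4a1 and Atf3 in males at 9 weeks and Atf3 in males at 15 weeks, at 1.32, 1.05 and 0.98.

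Nr4a3 (chr4:48045153-48086447, plus strand), whose protein is close kin to Nr4a1, was rare but moved most. It had 1, 12, 2, 2 and 1 counts in vehicle females and 28, 21, 12, 59 and 10 in 9-week females. In males it had 18, 6, 2, 15 and 21 counts under vehicle and 41, 27, 47, 27 and 35 at 9 weeks. At 15 weeks it had 9, 8, 15, 21 and 22 counts in females and 2, 15, 4, 0 and 14 in males. On the CPM scale the 9-week males (0.829 to 1.63 CPM) lay above all vehicle males (0.0749 to 0.784 CPM) and above all 15-week males (0 to 0.612 CPM). The 9-week females (0.421 to 2.51 CPM) overlapped the vehicle females only through vehicle female 2 (0.487 CPM). Averaged over the sexes, the log2 fold change at 9 weeks was 2.12 (SE 0.46, adjusted p = 0.0017), and from 9 to 15 weeks it was -1.48 (SE 0.44, adjusted p = 0.0465, and up to 0.119 with 1 library left out). In females alone the 9-week value was 2.75 (SE 0.68, adjusted p = 0.0170), and in males 1.49 (SE 0.61, adjusted p = 0.116). The female value was 3.88 (adjusted p = 0.0045) without vehicle female 2 and 2.21 (adjusted p = 0.0939) without 9-week female 4. None of these counts as a call, because the mean FPKM was at most 0.178 in any group. The 15-week male with a count of 0 had 14619526 counts in all, and a count of 0 there allows up to 0.205 CPM, which covers counting error only.

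Averaged over the sexes, Atf3 was the only gene of the 10 called at 9 weeks (8.51% of all genes tested were called). The median of the 10 log2 fold changes was 0.34, against -0.02 over all genes, and 9 of 10 estimates were above 0. Atf3 rose by 0.57 (SE 0.19, 95% interval 0.19 to 0.95, adjusted p = 0.0347), but this call was lost in 11 of the 20 fits that left out 1 library (vehicle females 2, 3 and 5, vehicle males 2, 3 and 5, 9-week females 2, 3 and 4, and 9-week males 2 and 4), with an adjusted p of up to 0.0687. Without vehicle male 1 its value was 0.69 (adjusted p = 0.0089). Nr4a1, with 0.63 (SE 0.24, adjusted p = 0.0771), and Jun, with 0.42 (SE 0.16, adjusted p = 0.0705), missed the threshold. Nr4a1 was called without vehicle male 1 (0.72, adjusted p = 0.0468), without vehicle female 4 (0.75, adjusted p = 0.0387) or without 9-week female 5 (0.69, adjusted p = 0.0448). It had 0.49 (adjusted p = 0.171) without 9-week male 5 and 0.51 (adjusted p = 0.179) without 9-week female 4. Jun was called without vehicle male 5, 9-week female 1 or 9-week male 5 (0.46 to 0.49), and was lowest without vehicle male 1 (0.36, adjusted p = 0.124).

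At 15 weeks, Atf3 was again the only gene of the 10 called, both in males and averaged over the sexes. It was measured at 70.4, 59.5, 55.1, 31.5 and 58.3 CPM in 15-week males and at 45.2, 45.3, 38.2, 37.5 and 65.2 CPM in 15-week females. Of the males only mouse 4 fell within the vehicle range, and 15-week female 5 was the highest female library. In males the log2 fold change was 0.98 (SE 0.26, 95% interval 0.44 to 1.53, adjusted p = 0.0154), where 8.92% of all genes tested were called. Averaged over the sexes it was 0.63 (SE 0.19, adjusted p = 0.0223), where 7.79% were called. Without 15-week male 4 these values were 1.15 (adjusted p = 0.0072) and 0.72 (adjusted p = 0.0101), and without vehicle male 1 they were 1.22 (adjusted p = 0.0097) and 0.75 (adjusted p = 0.0096). In a fit of the vehicle and 15-week males alone, Atf3 had nearly the same value, 0.999, but an adjusted p of 0.0889.

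The other 9 genes were not called at 15 weeks. The median log2 fold change was 0.51 in males (-0.04 over all genes) and 0.21 in females (0.00 over all genes). Jun was measured at 39.5, 56.5, 65.5, 49.8 and 83.1 CPM in vehicle males and at 113.7, 106.5, 59.13, 61.32 and 118.7 CPM in 15-week males. Mice 1, 2 and 5 at 15 weeks lay above every vehicle male and the others within the vehicle range. Its log2 fold change in males was 0.64 (SE 0.22, adjusted p = 0.0515). Without 15-week male 4 Jun was called, with 0.77 in males (adjusted p = 0.0257) and 0.49 averaged over the sexes (adjusted p = 0.0325). Without vehicle male 1 these values were 0.53 (adjusted p = 0.163) and 0.36 (adjusted p = 0.123). Averaged over the sexes, Jun had 0.42 with all libraries (SE 0.16, adjusted p = 0.0623), and Fosb 0.63 (SE 0.24, adjusted p = 0.0664). With 1 library left out, the adjusted p of Fosb ran from 0.0305 to 0.156. Fosb could not be called here at any p, because its mean FPKM was at most 0.844 in the compared groups. Egr1 had 0.60 (SE 0.31, adjusted p = 0.164), a value that rested on vehicle female 4. That library held 70.95 CPM of Egr1, against 11.3 to 17.2 CPM in the other vehicle females, and without it Egr1 was called at 15 weeks (1.02, adjusted p = 0.0113). In females alone no gene was called at 15 weeks, and hardly any gene in the table was (0.0984% of those tested). None of the 10 genes separated 15-week from vehicle mice without overlap in either sex, where 7.09% of all genes tested did in males and 2.21% in females.

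From 9 to 15 weeks no gene of the 10 was called averaged over the sexes (2.42% of all genes tested were) or within a sex (0% in each, with 2179 genes in males and 2046 in females at an unadjusted p under 0.05). Averaged over the sexes, 6 of 10 estimates were above 0. In males 9 of 10 estimates were below 0, with a median of -0.07 against -0.02 over all genes. Nr4a1 in males had -0.94 (SE 0.34, adjusted p = 0.233). Its levels at 15 weeks were 5.58, 7.51, 6.64, 3.58 and 9.90 CPM, and 4 of these 5 mice lay below all 9-week males. Nr4a3 in males had -2.10 (SE 0.63, adjusted p = 0.169) and was the only gene of the 10 with no overlap (3.36% of all genes tested in males). In females the highest estimate was that of Fosb, with 0.86 (SE 0.35, adjusted p = 0.349), and no gene of the 10 was free of overlap (1.27% of all genes tested).

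Males and females were also compared directly within each group. No gene of the 10 was called under vehicle (0.178% of all genes tested were), at 9 weeks (0.0492%) or at 15 weeks (0.184%). Under vehicle, Nr4a2 was measured at 3.35, 4.58, 3.81, 7.91 and 7.14 CPM in females, all above the highest male (3.25 CPM), and was the only gene of the 10 without overlap (1.59% of all genes tested). The male minus female log2 difference was -1.22 (SE 0.34, adjusted p = 0.0701). It passed the threshold without vehicle female 1 (-1.35, adjusted p = 0.0167) or vehicle male 4 (-1.39, adjusted p = 0.0370), and with DESeq2 (adjusted p = 0.0184). Without vehicle male 1 it was -1.06 (adjusted p = 0.421), and without vehicle female 4 it was -1.04 (adjusted p = 0.139). Nr4a1 (-0.80) and Nr4a3 (1.44) also had an unadjusted p under 0.05 between the sexes under vehicle. Mean Nr4a1 was 5.12 CPM in vehicle males, against 8.92 CPM in vehicle females and 8.55 CPM in 9-week females. This difference of Nr4a1 under vehicle was not called (edgeR adjusted p of 0.0897 to 0.433 with 1 library left out). The same vehicle males are the baseline of the rise of Nr4a1 in males, so both comparisons rest on them. At 9 weeks, Fosb was measured at 1.48, 2.80, 1.86, 2.25 and 2.58 CPM in females and at 4.15, 5.63, 4.24, 4.85 and 7.81 CPM in males, with no overlap (1.29% of all genes tested). The log2 difference was 1.28 (SE 0.35), and the adjusted p was 0.863. At 15 weeks all 10 genes overlapped between the sexes (2.43% of all genes tested did not).

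Marker genes of other cell types and of the circadian clock also differed between the groups. At 9 weeks, averaged over the sexes, 5 of 10 macrophage, 4 of 7 neutrophil, 5 of 8 T cell and 3 of 7 plasma cell markers were called higher. The summed macrophage level was 155.2 to 302.1 CPM in 9-week males against 75.4 to 231 CPM in vehicle males (medians 240.4 and 111.3). In females it was 84.9 to 306.0 CPM at 9 weeks against 37.5 to 153.8 CPM under vehicle (medians 227.8 and 42.3). The summed neutrophil level had medians of 147.7 and 103.2 CPM in 9-week and vehicle males, and of 132.0 and 42.85 CPM in females. The neutrophil markers S100a8, S100a9 and Cxcr2 had libraries at 0 CPM. In males, 9 of 10 smooth muscle markers were called lower at 9 weeks, with a median of -4.32 (log2), and 10 of 10 at 15 weeks. Their summed level was 106.6 to 202.0 CPM in 9-week males and 154.8 to 224.0 CPM in vehicle males without mouse 1, which had 6605 CPM. In females 0 of 10 were called at either time. Averaged over the sexes, 9 of 10 smooth muscle and 4 of 10 mesenchyme markers were called lower at 15 weeks. Whether these marker calls hold without vehicle male 1 was not tested. The median of a muscle and mesenchyme score (mean log2 CPM of both lists) was 3.54 in vehicle, 3.26 in 9-week and 2.73 in 15-week males, and 1.31, 3.70 and 1.49 in females. Vehicle male 1 had a score of 7.51, against 2.72 to 4.37 in the other vehicle males. With this score as a covariate, Atf3 and Nr4a1 kept their calls in males at 9 weeks (1.26 and 1.49), as did Atf3 at 15 weeks (1.39). Averaged over the sexes at 9 weeks, Atf3 also stayed called under it (0.55, adjusted p = 0.0263). The median of a clock score (mean log2 CPM of 9 day-phase genes such as Dbp minus that of 5 night-phase genes such as Arntl) was 1.06 in vehicle males, with a range of -0.91 to 3.64, and -0.66 to -2.04 in the other groups. With the clock score as a covariate, Nr4a1 (1.51, adjusted p = 0.0274) and Atf3 (1.10, adjusted p = 0.0493) stayed called in males at 9 weeks. Atf3 did not in males at 15 weeks (1.04, adjusted p = 0.0871) or averaged over the sexes at 9 weeks (0.59, adjusted p = 0.0521). The heat shock genes, another set that responds to tissue handling, had 0 of 11 called at 9 weeks and 4 of 11 called higher at 15 weeks averaged over the sexes. In males 1 of 11 was called higher at 9 weeks (median 0.15) and 4 at 15 weeks, with summed levels of 3074 to 4232 CPM in 15-week males against 2416 to 3581 CPM in vehicle males. The part of heat shock and immune cells in the values of the 10 genes was not tested.

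Whether the 10 genes rose and fell together from mouse to mouse was examined on log2 CPM after the mean of each group had been subtracted, over 30 libraries. Of the 45 pairs, 41 had a Pearson r above 0, with a median of 0.28 and a range of -0.24 to 0.75. A permutation test (100000 two-sided permutations within groups, Benjamini-Hochberg adjusted over 45 pairs) was passed by 7 pairs in both Pearson's r and Spearman's rho, all positive. Fos, Fosb, Atf3 and Nr4a1 made up 5 of them. The Fosb and Atf3 pair had r = 0.72 (rho = 0.68, adjusted p = 0.0019 and 0.0052), Fos and Fosb r = 0.70 (rho = 0.64, adjusted p = 0.0084 and 0.0132) and Nr4a1 and Fosb r = 0.69 (rho = 0.66, adjusted p = 0.0019 and 0.0075). The pair of Fos and Atf3 had r = 0.67 (rho = 0.60, adjusted p = 0.0101 and 0.0148) and that of Nr4a1 and Fos r = 0.57 (rho = 0.62, adjusted p = 0.0162 and 0.0132). The highest value was that of Junb and Ier2, with r = 0.75 (rho = 0.79, adjusted p = 0.0009 and 0.0004). These genes share a strand of chromosome 8, where 314056 bases lie between them. Atf3 and Egr1 had r = 0.56 (rho = 0.56, adjusted p = 0.0289 and 0.0188). Without the 2 libraries farthest from the median, r was 0.50 to 0.70 in these 7 pairs. Pairs of other genes were not examined, so these counts have no background share beside them. Whether the shared variation is particular to the 10 genes was not tested.

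**Figure D4:**
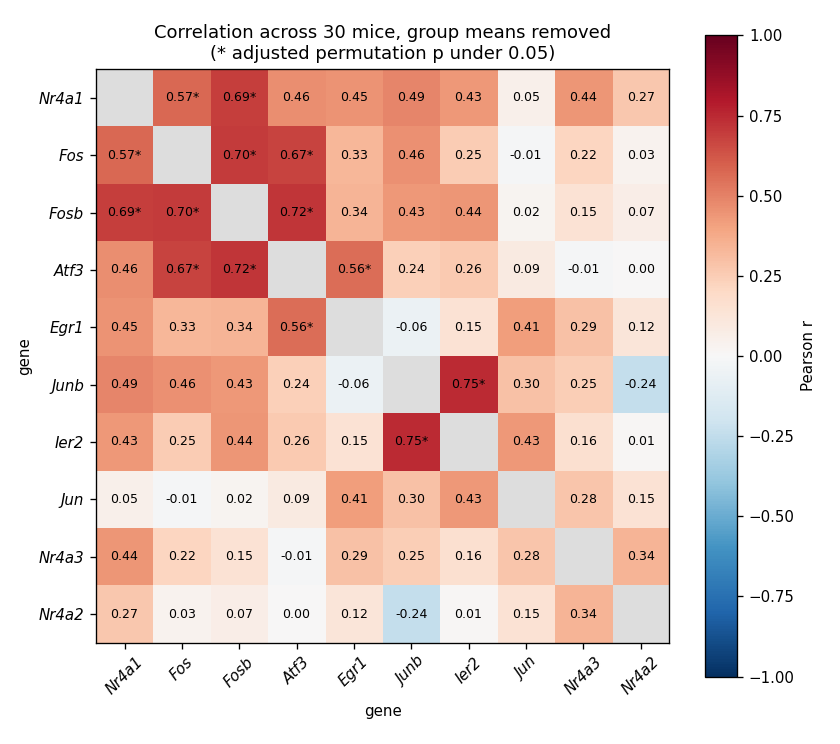
Pearson r of each pair of genes over 30 mice with the group means removed (color scale from -1 to 1; asterisk, adjusted permutation p under 0.05). The values run from -0.24 to 0.75, and the 7 starred pairs are Junb with Ier2, Atf3 with Egr1, and 5 pairs among Nr4a1, Fos, Fosb and Atf3.

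Within each sex all 7 pairs stayed positive, with r of 0.50 to 0.69 in females and 0.57 to 0.86 in males. Jun and Nr4a2 followed the rest least. The correlation with the mean of the other 9 genes was 0.32 for Jun and 0.16 for Nr4a2, against 0.76 for Nr4a1, 0.64 for Fosb and 0.60 for Fos. The single mouse farthest from its group was 15-week male 4, in which all 10 genes were below their group means, by 0.82 on average (log2). In 15-week female 5 and 15-week male 2, all 10 were above, by 0.53 and 0.32. Male 4 at 15 weeks held 14619526 counts and had the lowest muscle and mesenchyme score of all libraries (0.139). Vehicle female 5, with the fewest counts (9265804), had 1 of 10 genes above its group mean. By contrast, 15-week male 1 had 18974134 counts and 8 genes above. The part of depth and of this score in the shared rise and fall was not tested. Over the 16251 other genes tested, the gene whose pattern was most like the mean of the 10 was Ppp1r15a (r = 0.78), which encodes a stress-induced phosphatase subunit. It was followed by Fhl3 (0.74), Smox (0.73), Plxnd1 (0.73), Adamts7 (0.73), Scarf2 (0.72), Fam110a (0.72), Clec4a2 (0.71), Ier3 (0.71) and Mmp2 (0.70). Of these, Clec4a2, Adamts7, Fhl3 and Scarf2 were rare, with median levels of 0.274, 0.602, 0.737 and 1.62 CPM. The median r over all genes was 0.01, with a 5th to 95th percentile range of -0.42 to 0.47. These values describe the same 30 libraries and carry no test.

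Most pairs among Nr4a1, Fos, Fosb and Atf3 passed the permutation test of correlation. Nr4a1 and Atf3 did not (r = 0.46, rho = 0.44, adjusted p = 0.0880 and 0.0875). The windows before the RefSeq starts of these 4 genes are printed here because most of their pairs passed. Each is the 250 bases before the RefSeq start on the coding strand (GRCm38.p6), at chr15:101266596-101266845 (plus strand) for Nr4a1, chr12:85473640-85473889 (plus) for Fos, chr7:19310046-19310295 (minus) for Fosb and chr1:191183334-191183583 (minus) for Atf3. The Atf3 window lies inside the gene span printed above, since the RefSeq start of Atf3 is downstream of the outermost start in the annotation of that span. Capitals mark TGACG, the core of the element bound by the cAMP-responsive factor CREB and its relatives, on either strand (CGTCA where it lies on the other one).
Nr4a1: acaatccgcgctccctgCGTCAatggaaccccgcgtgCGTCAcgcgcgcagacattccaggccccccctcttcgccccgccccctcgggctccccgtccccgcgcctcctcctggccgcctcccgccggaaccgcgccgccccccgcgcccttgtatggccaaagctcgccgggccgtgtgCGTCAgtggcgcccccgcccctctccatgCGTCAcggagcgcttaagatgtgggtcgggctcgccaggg
Fos: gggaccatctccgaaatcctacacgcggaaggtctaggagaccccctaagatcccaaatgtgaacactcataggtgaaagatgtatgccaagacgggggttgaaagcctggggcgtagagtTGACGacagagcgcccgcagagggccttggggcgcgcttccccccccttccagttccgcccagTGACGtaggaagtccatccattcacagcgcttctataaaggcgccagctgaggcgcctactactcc
Fosb: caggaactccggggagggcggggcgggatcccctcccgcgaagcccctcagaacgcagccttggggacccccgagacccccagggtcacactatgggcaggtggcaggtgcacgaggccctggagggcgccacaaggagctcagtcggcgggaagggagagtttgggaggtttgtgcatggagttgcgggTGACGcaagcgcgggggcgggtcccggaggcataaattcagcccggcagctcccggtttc
Atf3: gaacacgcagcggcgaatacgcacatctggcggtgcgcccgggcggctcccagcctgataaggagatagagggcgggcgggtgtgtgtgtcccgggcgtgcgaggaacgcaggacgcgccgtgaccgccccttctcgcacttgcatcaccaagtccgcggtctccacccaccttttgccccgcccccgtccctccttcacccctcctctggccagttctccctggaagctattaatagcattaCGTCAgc

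Counted back from the start, with the base next to it as 1, TGACG began at 129 and 66 in Fos and at 60 in Fosb. On the other strand it lay at 233, 213, 69 and 40 in Nr4a1 and at 7 in Atf3. Such a window was used for 8 of the 10 genes, and 7 of them held TGACG on either strand, Jun being the exception. This core was found in 17.8% of the 32851 windows of all genes and in 25.1% of those of genes tested. The full element TGACGTCA, which contains the core on both strands, was in none of the 8 (1.55% of all windows). The AP-1 element TGANTCA (6.75% of all windows), the Nr4a element AAAGGTCA (1.34%) and the CArG box of serum response factor (1.47%) were in none of the 8 either. Bases farther from the start were not searched, and no window of Egr1 or Ier2 was used. Whether the 10 genes hold these elements outside the windows was therefore not tested. The Egr element GCGNGGGCG was in Nr4a1, Nr4a2 and Fosb (4.70% of all windows, 8.27% of those of tested genes), and TATAAA was in Fos, starting at 33, and in Nr4a2 (12.4%). The share of G and C was 74.4% in Nr4a1, 68.8% in Fosb, 65.2% in Atf3 and 58.4% in Fos, where the median over windows of tested genes was 59.2%. A match describes these letters only.

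The pathway around these genes was described with 7 lists of 99 entries (Fosl1 stands in 2 of them), of which 97 were tested. At 9 weeks, averaged over the sexes, 26 were called higher and 0 lower, 26.8% of the entries, against 8.51% of all genes. At 15 weeks 12 were higher and 2 lower (14.4%, against 7.79%), and from 9 to 15 weeks 0 were higher and 8 lower (8.25%, against 2.42%). At 9 weeks 20 were higher and 1 lower in males (21.6%, against 7.31% of all genes), and 12 higher and 0 lower in females (12.4%, against 2.90%). At 15 weeks 15 were higher and 3 lower in males (18.6%, against 8.92%), and 0 were called in females (against 0.0984%). The lists were chosen with earlier results of these data known.

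Among the pathway lists, that of genes AP-1 is known to regulate had the largest median change at 9 and at 15 weeks. AP-1 activity itself was not measured. Of 16 such genes, 9 were higher at 9 weeks, 3 at 15 weeks and 5 lower from 9 to 15 weeks, with medians of 3.38, 0.99 and -2.08 (log2). Cxcl2, a chemokine that attracts neutrophils, had 0 counts in every vehicle female and 0 to 3 counts in vehicle males, against 2 to 1442 counts in 9-week females and 72 to 816 in 9-week males (adjusted p = 1.19e-05). It fell to 0 to 36 counts in 15-week females and 1 to 81 in 15-week males (adjusted p = 0.0088 from 9 weeks). Mmp10, a secreted protease, was at most 1.11 CPM under vehicle, with medians of 3.89 CPM in 9-week females and 6.22 CPM in 9-week males (log2 fold change 6.05, SE 1.09, adjusted p = 0.0003). Ptgs2, the inducible prostaglandin synthase COX-2, had medians of 13.8 CPM in females and 13.2 CPM in males at 9 weeks and of 0.392 and 0.362 CPM at 15 weeks (-5.58, SE 0.88, adjusted p = 0.0024). With the muscle and mesenchyme score as a covariate, the falls of Ptgs2 and Cxcl2 from 9 to 15 weeks were no longer called (adjusted p = 0.0990 and 0.227). At 15 weeks Plaur, the urokinase receptor, had 1.05 (SE 0.25, adjusted p = 0.0076) and Areg, the EGF receptor ligand amphiregulin, 0.87 (SE 0.21, adjusted p = 0.0072).

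Among 34 other primary response genes, 8 were higher and 0 lower at 9 weeks, with a median of 0.20. At 15 weeks 4 were higher and 1 lower (median 0.08). Socs3, the feedback inhibitor of cytokine signaling, had medians of 8.35 and 8.70 CPM in vehicle females and males, 31.3 and 47.1 CPM at 9 weeks and 17.0 and 20.7 CPM at 15 weeks. It rose by 2.14 at 9 weeks (SE 0.25, adjusted p = 8.03e-07) and by 1.07 at 15 weeks (SE 0.24, adjusted p = 0.0053), and fell by 1.07 from 9 to 15 weeks (adjusted p = 0.0172). Ier3, an early response gene linked to cell survival, rose by 1.21 at 9 weeks (SE 0.23, adjusted p = 0.0006), and Phlda1 by 0.83 at 15 weeks (SE 0.21, adjusted p = 0.0111). Klf9, a Krüppel-like factor, was lower at 15 weeks (-0.59, SE 0.14, adjusted p = 0.0088), a call lost with the clock score (adjusted p = 0.0685) or the muscle and mesenchyme score (adjusted p = 0.0743) as a covariate. Nfkbiz, a nuclear regulator of NF-κB, was lower at 15 than at 9 weeks (-0.51, SE 0.12, adjusted p = 0.0199), a call lost without 9-week female 4 (adjusted p = 0.0545) and with the muscle and mesenchyme score (adjusted p = 0.275). Under that covariate the fall of Socs3 from 9 to 15 weeks was also not called (adjusted p = 0.267).

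Of 12 feedback genes of the kinase cascade, 4 were higher at 9 weeks and 3 at 15 weeks, with medians of 0.46 and 0.15. Dusp10, a phosphatase that switches off stress kinases, rose by 0.996 at 9 weeks (SE 0.19, adjusted p = 0.0005) and by 0.77 at 15 weeks (SE 0.19, adjusted p = 0.0086). Dusp6, which switches off ERK, rose by 0.64 (SE 0.17, adjusted p = 0.0115) and 0.55 (SE 0.17, adjusted p = 0.0303). The 15-week call of Dusp6 was lost without any 1 of vehicle females 1 and 5, vehicle males 1 and 3, 15-week female 5 or 15-week males 1 and 2 (adjusted p of 0.0517 to 0.0619), and with the clock score as a covariate (adjusted p = 0.121).

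Of 15 upstream regulators, 2 were higher at 9 weeks and 1 lower at 15 weeks, with medians of -0.03 and 0.00. Elk3, a partner of serum response factor that is also high in vessel cells, rose by 1.02 at 9 weeks (SE 0.26, adjusted p = 0.0076), and the cAMP-responsive regulator Crem by 0.57 (SE 0.13, adjusted p = 0.0023). Elk3 was lower at 15 than at 9 weeks (-0.97, SE 0.26, adjusted p = 0.0369). That fall missed the threshold in 12 fits that each left out 1 library (adjusted p of 0.0583 to 0.0789) and was -0.35 (adjusted p = 0.497) with the muscle and mesenchyme score as a covariate. Elk1 was lower at 15 weeks (-0.47, SE 0.13, adjusted p = 0.0138), and without 15-week male 5 its value of -0.38 was under the fold threshold.

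The remaining lists held fewer calls. Of 9 other AP-1 family genes, Batf2 alone was called, higher by 0.66 at 9 weeks (SE 0.11, adjusted p = 0.0002) and by 0.60 at 15 weeks (SE 0.11, adjusted p = 0.0011), and the list's medians were 0.28 and 0.17. None of the 3 tested genes of the Egr list (Egr2 to Egr4 and the Egr repressors Nab1 and Nab2) was called, with medians of 0.36 and 0.25. Of 8 genes of the Atf4 stress response, in which Atf3 is known to take part, 2 were higher at 9 weeks and 1 at 15 weeks, with medians of 0.43 and 0.24. Asns, asparagine synthetase, rose by 0.68 at 9 weeks (SE 0.14, adjusted p = 0.0014) and 0.58 at 15 weeks (SE 0.14, adjusted p = 0.0096), and Ddit4, an inhibitor of mTOR signaling, by 0.69 at 9 weeks (SE 0.17, adjusted p = 0.0065). The 15-week call of Asns was lost with the muscle and mesenchyme score as a covariate (adjusted p = 0.0545).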

How the data were processed

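Stranded poly(A) RNA libraries from 30 mice were sequenced by the authors, who trimmed reads with Trim Galore, mapped them to GRCm38 with STAR and deposited raw gene counts (featureCounts) and FPKM and TPM per gene (StringTie). Tool names are as in the submitters' processing notes. Duplicate reads were not removed before counting as far as the sources used here say. In the deposited TPM files, mt-Nd4l, mt-Atp8 and Gm28439 held 56.6 to 80.8% of the TPM of a library but under 0.001% of its counts each (median), so TPM were used only for the order of genes within a library and as an alternative. FPKM served as an expression minimum.

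Counts were scaled by TMM and tested with edgeR (version 4.0.16, R 4.3.3; filterByExpr, quasi-likelihood test, all 30 libraries in 1 fit with 1 mean per group), with p-values adjusted by Benjamini-Hochberg over the 16261 genes in each of 14 comparisons. Calls needed an adjusted p under 0.05, a log2 fold change over 0.4 in size and a mean FPKM of 1 in 1 compared group. CPM are scaled by TMM, except for the share of counts. Scaling left the median of all genes within 0.04 of 0 (log2). Alternatives were DESeq2 (1.42.0), limma (3.58.1) on log2(TPM + 1) and log2(TPM + 0.1), other scaling, filtering, samples and covariates. The clock score covariate and limma on TPM scaled to 1 median per library were added after seeing the data. The fits were tested on simulated data. Within groups, no 2 libraries were alike within sampling noise. The 10 genes and the lists were chosen with earlier results of these data known. Besides the 10 genes, the text names from each pathway list the called genes with the largest fold change (at most 2 in each direction per comparison averaged over the sexes), the 10 genes most like the mean of the members, and up to 3 defining genes of each marker list.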

Additional observations from a re-analysis of the deposited data

Results flagged for a closer look

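In each group of 5 mice, the highest and lowest library of each gene were compared with the rest by Dixon's gap test. Of 60 groups checked, 3 held a library far from the others, and chance alone flags about 1 in 20 groups. Egr1 was at 70.95 CPM in vehicle female 4, where the next vehicle female had 17.21 CPM. Atf3 was at 65.19 CPM in 15-week female 5, where the next had 45.26 CPM. Nr4a3 was at 0.4866 CPM (12 counts) in vehicle female 2, where the next had 0.1066 CPM. Vehicle female 4 and 15-week female 5 were also among the libraries in which most of the 10 genes lay above their group mean, 8 and 10 of 10.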

How the results depend on the processing

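The number of the 10 genes called changed with the processing as follows. With DESeq2 it was 3 at 9 weeks averaged over the sexes (Nr4a1, Jun and Atf3), 2 at 15 weeks (Jun and Atf3), 2 at 15 weeks in males and 1 between the sexes under vehicle (Nr4a2, -1.22, adjusted p = 0.0184). It was 3 at 9 weeks in males, with Fosb added, both with DESeq2 and with the muscle and mesenchyme score (1.24, adjusted p = 0.0208). With the compared libraries only it was 0 at 15 weeks in males, and with DESeq2's size factors in edgeR it was 2 there. Without the fold and FPKM minimum it was 2 at 9 weeks, 1 from 9 to 15 weeks and 1 in females at 9 weeks, each through Nr4a3. On log2(TPM + 1) and on log2(TPM + 0.1) it was 0 at 15 weeks, 4 from 9 to 15 weeks, 1 at 9 weeks in males, 0 at 15 weeks in males and 1 from 9 to 15 weeks in males. On that scale the median of all genes shifted by -0.49 from 9 to 15 weeks. The 10 named pathway calls at 15 weeks averaged over the sexes were lost on both TPM scales, where the median of all genes shifted by -0.22. On TPM scaled to 1 median, Dusp6 and Elk1 were lost, and Atf3 and Nr4a1 were called as in the counts. With the clock score it was 0 at 9 weeks averaged over the sexes and 0 at 15 weeks in males. With 1 library left out, the count ranged from 0 to 2 at 9 weeks, 1 to 2 at 15 weeks, 1 to 3 at 9 weeks in males, 1 to 2 at 15 weeks in males and 0 to 1 between the sexes under vehicle. The value of Jun from 9 to 15 weeks (0.0028) changed sign with the replicate block (-0.0030), on log2(TPM + 1) (-0.58), log2(TPM + 0.1) (-0.63) and TPM scaled to 1 median (-0.0906), and ran from -0.0472 to 0.0777 with 1 library left out. With the muscle and mesenchyme score, Fos (-0.08) became 0.26 and Junb (-0.18) became 0.20 from 9 to 15 weeks. Among values with an unadjusted p of 0.05 or more and no call in any setting, 31.4% changed sign with each pseudocount on TPM, 16.1% on TPM scaled to 1 median, 18.8% with that score and 15.8% with the clock score. Pairs of genes past the threshold for correlation were 12 without centring on group means and 40 on log2(TPM + 1). Same-numbered libraries of different groups had r of -0.58 to 0.47 with the group means removed, and 12 of 75 such pairs had r over 0.1. They were not compared with differently numbered pairs, so whether replicate numbers pair the mice was not tested. The replicate block changed no call of the 10 genes (Nr4a1 in males at 9 weeks 1.24, adjusted p = 0.0340). The cause of these changes was not tested. Nr4a3, with 0 to 59 counts per library, was limited by depth.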
